A study of Oryza sativa Indica Group with 6 samples.

Results

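The genes described here are 6 genes of rice named for the synthesis of diterpenoid phytoalexins: CPS4, CYP99A2, OsMAS, CYP71Z7, CYP701A8 and CYP701A19. They are 6 of 17905 genes to which at least 1 probe set of the array maps alone, and all of their probe sets, 7 in number, were taken by gene symbol or synonym. The genes were chosen with earlier results of the same arrays known, in which several of them stood high in the line Ossl. Their levels where Ossl is compared are therefore a description and carry no test. The lists of other genes used below were also chosen with earlier results known, so their calls are not independent of the choice.

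The study set 3 Basmati lines, each with a T-DNA insertion, side by side on the Affymetrix Rice Genome array: Ossl, Osoc and OsPE. Each line had 2 arrays of total RNA from seedlings taken 15 days after germination and grown under optimal conditions, and the series calls the arrays biological replications. All groups are insertion mutants, and no untransformed line is among the samples. The sources used here do not give the insertion sites, the disrupted genes, the number of independent transformants behind a line or any pooling of seedlings, so no targeted gene could be checked.

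Diterpenoid phytoalexins are antimicrobial compounds that rice makes when attacked, and momilactones are also released by its roots. Synthesis starts in the plastid from geranylgeranyl diphosphate, which a copalyl diphosphate synthase (CPS) folds into the ent or the syn form. A second cyclase, named kaurene synthase-like (KSL), then makes a hydrocarbon, and cytochromes P450 and a dehydrogenase oxidize it. Momilactones and the oryzalexin S branch come from the syn form, and phytocassanes and the other oryzalexins come from the ent form, which also leads to gibberellin hormones. Many of the genes lie in a momilactone cluster on chromosome 4 and a phytocassane cluster on chromosome 2.

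Of the 6 genes, 5 had higher signals on both Ossl arrays than on any of the other 4 arrays, namely CPS4, CYP99A2, OsMAS, CYP71Z7 and CYP701A8. That order held for 17.8% of all 16460 genes tested. In 3 of the 5, CYP99A2, OsMAS and CYP71Z7, Osoc also stood above OsPE without overlap, an order found in 3.77% of all genes, whereas CPS4 and CYP701A8 were high in Ossl alone. The probe sets listed under CYP701A19 did not share this pattern. Since the members were chosen on these arrays, nothing is read from these shares.

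Values are signals on the arrays' common linear scale, and differences are in log2(signal + 16), so that a fold is a ratio of signal + 16 and is smaller than the ratio of the signals where these are low. Signals of different probe sets cannot be compared with each other as levels. The tests used limma with a variance trend. Calls are named below for genes of the pathway, their neighbours, gibberellin genes and the list of regulators. Of these, only those of LOC4329723 and that of WRKY62 in Ossl against Osoc also held in a fit without the trend. The seedling RNA comes from a mixture of tissues, in which fewer cells of a type and less RNA per cell cannot be told apart.

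**Figure D1:**
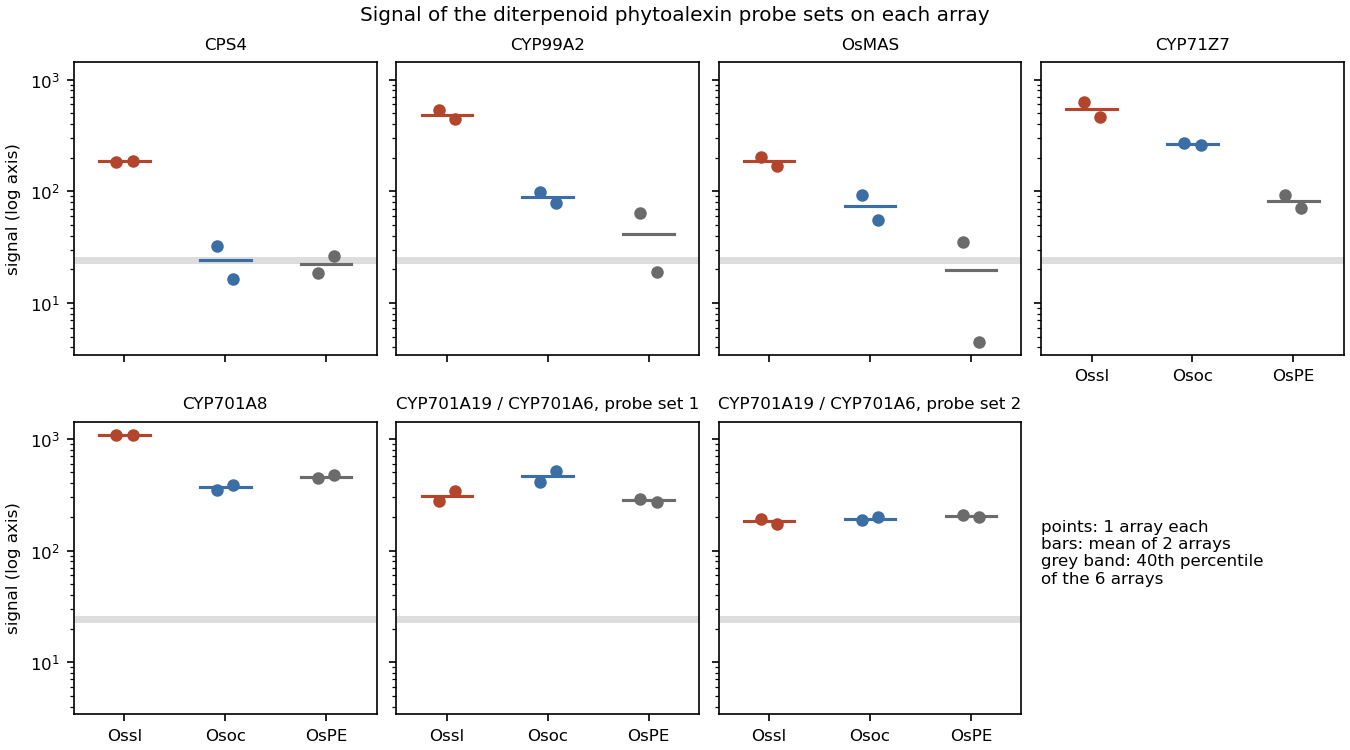
Signals of the member probe sets on each array (log axis), with Ossl left, Osoc in the middle and OsPE right; points are arrays, bars are line means and the grey band marks the 40th percentile of the 6 arrays. CPS4, CYP99A2, OsMAS, CYP71Z7 and CYP701A8 stood highest on both Ossl arrays, and the probe sets of the gene listed as CYP701A19 did not.

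CPS4 on chromosome 4, annotated as LOC4335090, makes syn-copalyl diphosphate and so opens the momilactone branch. Its probe set read 183.3 and 187.9 on the Ossl arrays, 32.3 and 16.5 on the Osoc arrays, and 18.5 and 26.1 on the OsPE arrays. The Ossl arrays lay far above the others, while the Osoc and OsPE arrays overlapped. The mean of 186 ± 3.25 in Ossl corresponded to percentile 67.8 of its arrays, against percentile 39.4 in Osoc with 24.4 ± 11.2, and percentile 38.7 in OsPE with 22.3 ± 5.37 (SD, n = 2 each). Outside Ossl the gene was thus read near the 40th percentile, and 1 array of each of these lines lay above it. The log2 difference of Ossl was 2.40 against OsPE and 2.35 against Osoc, with a standard error of 0.40. For Osoc against OsPE it was 0.06, with a 95% interval of -0.82 to 0.93 and limma adjusted p = 0.967.

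OsMAS on chromosome 4, annotated as LOC4335093, encodes the momilactone A synthase, a dehydrogenase of the last step. It read 204.4 and 168.4 in Ossl, 92.8 and 55.7 in Osoc, and 35.1 and 4.5 in OsPE. The 3 lines did not overlap, Ossl being highest and OsPE lowest, and 1 OsPE array lay below the 40th percentile. The means were 186 ± 25.5 in Ossl, 74.2 ± 26.2 in Osoc and 19.8 ± 21.6 in OsPE (SD, n = 2 each). The log2 difference of Ossl was 2.64 against OsPE and 1.19 against Osoc, with a standard error of 0.45. Osoc against OsPE gave 1.45, which did not pass the threshold of 0.05 (limma adjusted p = 0.0803). It passed with median centring (adjusted p = 0.0463), with the replicate block (adjusted p = 0.049) and without OsPE replicate 1, the higher of the OsPE arrays, where the difference was 2.11 (adjusted p = 0.0284). Without OsPE replicate 2 the difference was 0.79, and over the 15 alternatives the adjusted p reached 0.416.

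CYP99A2 on chromosome 4, annotated as LOC4335096, encodes a cytochrome P450 that oxidizes syn-pimaradiene on the way to momilactones. It read 531.2 and 440.8 in Ossl, 98.8 and 79.0 in Osoc, and 63.8 and 18.8 in OsPE. The lines again fell in the order Ossl, Osoc, OsPE without overlap. The means were 486 ± 63.9 in Ossl, 88.9 ± 14.0 in Osoc and 41.3 ± 31.8 in OsPE (SD, n = 2 each). Among the members it had the largest log2 difference of Ossl against OsPE, 3.25, and that of Ossl against Osoc was 2.26, with a standard error of 0.36. The difference of Osoc against OsPE, 0.99, did not pass (limma adjusted p = 0.137). It was 1.59 and passed without OsPE replicate 1 (adjusted p = 0.0215), and it was 0.39 without OsPE replicate 2.

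CYP71Z7 on chromosome 2, annotated as LOC4329726, encodes a cytochrome P450 that hydroxylates ent-cassadiene derivatives in phytocassane synthesis. Its signals were 630.8 and 463.7 in Ossl, 271.7 and 257.7 in Osoc, and 92.0 and 71.0 in OsPE. All 6 arrays were above their 40th percentile, and the 3 lines were stepped without overlap. The means were 547 ± 118 in Ossl, 265 ± 9.9 in Osoc and 81.5 ± 14.8 in OsPE (SD, n = 2 each). The log2 difference of Ossl was 2.52 against OsPE and 0.99 against Osoc, with a standard error of 0.21. In Osoc against OsPE CYP71Z7 rose 2.89-fold, a log2 difference of 1.53 with a 95% interval of 1.08 to 1.99 (limma adjusted p = 0.000856). This passed in 14 of 15 alternative settings, the exception being a fit without the variance trend (adjusted p = 0.108). The comparison uses the same OsPE and Osoc arrays as the comparisons with Ossl.

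CYP701A8 on chromosome 6, annotated as LOC4341343, encodes a relative of ent-kaurene oxidase that hydroxylates ent-cassadiene and ent-sandaracopimaradiene. It had signals of 1087.6 and 1078.8 in Ossl, 351.3 and 385.6 in Osoc, and 445.3 and 474.5 in OsPE. Ossl was highest, and here Osoc, not OsPE, was lowest on both arrays. The means were 1083 ± 6.22 in Ossl, 368 ± 24.3 in Osoc and 459.9 ± 20.6 in OsPE (SD, n = 2 each). With a standard error of 0.12, the log2 difference of Ossl was 1.21 against OsPE and 1.52 against Osoc. That of Osoc against OsPE, -0.31, did not pass (limma adjusted p = 0.155).

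The name CYP701A19 belonged to a pair of genes in the annotation, of which one, LOC112936021, had no probe set. The other, LOC4341347, also carries the names CYP701A6, D35 and OsKO2, under which it is known as the ent-kaurene oxidase of gibberellin synthesis, whose loss dwarfs rice. Its probe sets are of the type that may cross-hybridize with related sequences, so it is uncertain which of the neighbouring CYP701A genes they read. The first probe set read 277.0 and 344.2 in Ossl, 414.9 and 513.8 in Osoc, and 289.7 and 274.3 in OsPE. Osoc was highest, and Ossl overlapped OsPE. This probe set rose 1.6-fold in Osoc against OsPE, a log2 difference of 0.68 (limma adjusted p = 0.0287). The call ended without any one of the 4 arrays of these lines (differences between 0.53 and 0.83 over all alternatives). In Ossl its log2 difference was 0.13 against OsPE and -0.56 against Osoc.

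The second probe set of that gene read 192.8 and 174.2 in Ossl, 186.3 and 200.6 in Osoc, and 207.5 and 200.0 in OsPE. All 6 arrays lay close together, with log2 differences of -0.14 for Ossl against OsPE, -0.07 for Ossl against Osoc and -0.07 for Osoc against OsPE (limma adjusted p = 0.904 for the last). The label of a phytoalexin gene is thus not secure for this gene, and the pattern of the other 5 members was not seen in either of its probe sets.

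Counted by the brightest probe set of each gene, 2 of the 6 members rose in Osoc against OsPE, CYP71Z7 and the gene listed as CYP701A19, and 0 fell, with 5 at an unadjusted p below 0.05. Of all 16460 genes tested, 5.77% rose in that comparison and 6.14% fell, and 4680 had an unadjusted p below 0.05. The arrays did not overlap in 4 members higher in Osoc and 1 lower, where 25.2% of all genes were higher without overlap and 33.3% lower. The median log2 difference was 0.83 for the members and -0.04 for all genes. Against OsPE, Ossl was higher without overlap in 5 members, where 28.2% of all genes were, and lower in 0, where 29.1% were. The median of the members was 2.46, against -0.01 for all genes. Against Osoc, Ossl was higher without overlap in 5 members and lower in 1, where 32.2% and 26.4% of all genes were, and the medians were 1.35 and 0.02. The members were chosen with the comparisons of Ossl known, and Osoc against OsPE uses arrays of those comparisons. The members' tests in Osoc against OsPE are thus not independent of the choice, and nothing is read from any of these counts.

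**Figure D2:**
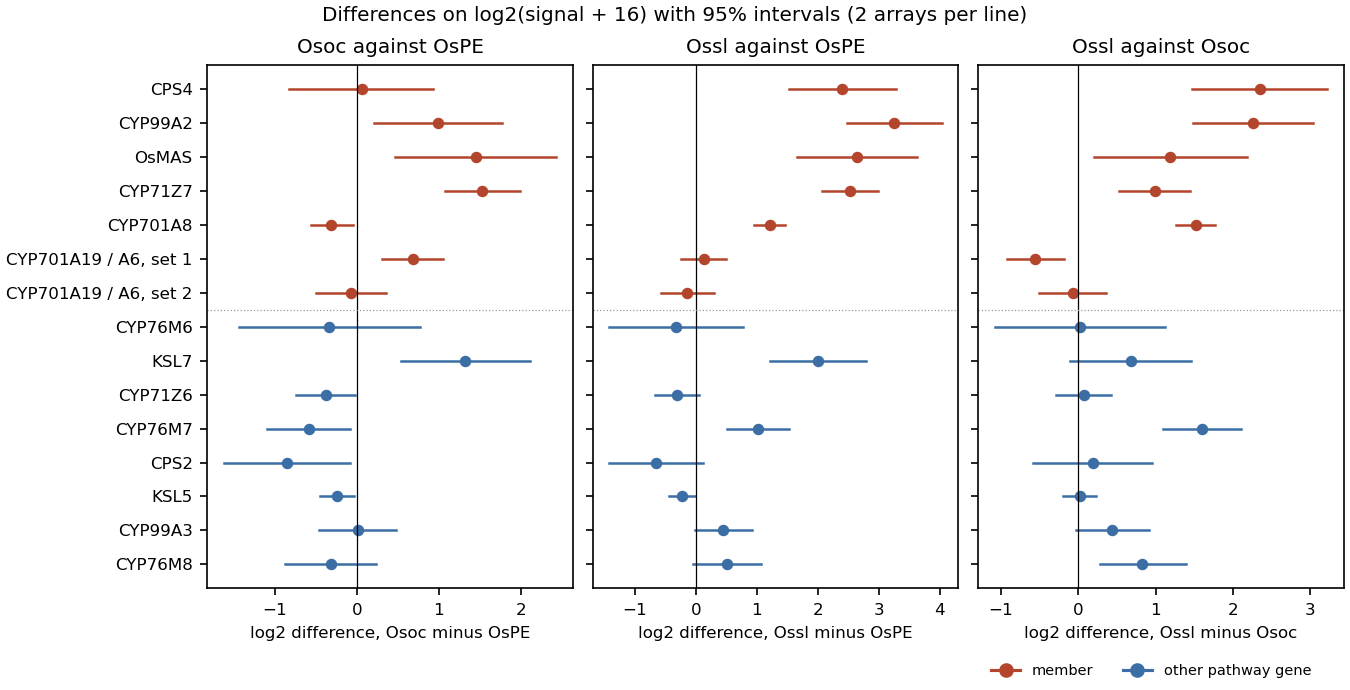
Log2 differences on the scale of log2(signal + 16) with 95% intervals from the fit (2 arrays per line), for the members above the dotted line and the other tested genes of the pathway below it; the panels show Osoc against OsPE, Ossl against OsPE and Ossl against Osoc. In both comparisons with OsPE the intervals of CYP99A2, OsMAS, CYP71Z7 and KSL7 lay to the right of 0. In both comparisons of Ossl those of CPS4, CYP99A2, OsMAS, CYP71Z7, CYP701A8 and CYP76M7 did.

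Most of the other tested genes of the pathway did not pass. Apart from the members, 12 genes of the diterpenoid phytoalexin list were on the array, and 8 were tested. KSL4, CYP76M5, CYP701A9 and KSL10 were too dim. In Ossl against OsPE 2 genes rose, KSL7 and CYP76M7, 0 fell and 6 did not pass, and the list's median was 0.11. Of all genes, 6.99% rose and 4.7% fell in that comparison. In Ossl against Osoc only CYP76M7 rose among these 8, 0 fell and the median was 0.32, where 10.1% of all genes rose and 6.99% fell. Only KSL7 of these 8 rose in Osoc against OsPE, 0 fell and the median was -0.33, where 5.77% of all genes rose and 6.14% fell. At an unadjusted p below 0.05 there were 3, 2 and 5 of the 8 in these comparisons, against 4618, 5429 and 4680 of all 16460 genes.

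KSL7, the cyclase that makes ent-cassadiene, the hydrocarbon on which CYP71Z7 and CYP76M7 act, had an order of lines like that of CYP71Z7. Its tested probe set read 123.2 and 187.8 in Ossl, 111.0 and 71.2 in Osoc, and 23.4 and 29.0 in OsPE. Both Ossl arrays stood above both Osoc arrays, and these above both OsPE arrays. Its other probe set, too dim to be tested, read 22.2 and 18.2 in Ossl, 4.3 and 4.4 in Osoc, and 15.8 and 4.1 in OsPE. There Ossl was highest, and Osoc and OsPE overlapped. KSL7 rose in Ossl against OsPE by a log2 difference of 2.00 (limma adjusted p = 0.00422), a call that ended without Ossl replicate 2, and in Osoc against OsPE by 1.32 (adjusted p = 0.0454). The Osoc call held in 6 of 15 alternatives, with differences between 0.77 and 1.73, and ended without any one of the OsPE or Osoc arrays or without Ossl replicate 2. The difference of Ossl against Osoc, 0.68, did not pass (adjusted p = 0.293).

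CYP76M7 is known as a hydroxylase of ent-cassadiene. The annotation places the gene of this name on chromosome 6, outside the phytocassane cluster, so which gene its probe set reads is not secure. The gene listed as CYP76M7 resembled CYP701A8 in its order of lines. It read 354.2 and 303.9 in Ossl, 83.3 and 112.9 in Osoc, and 168.3 and 139.9 in OsPE. Ossl was highest and Osoc lowest, with no overlap. The gene rose in Ossl against Osoc by a log2 difference of 1.60 (limma adjusted p = 0.000752) and against OsPE by 1.02 (adjusted p = 0.0176). The second call ended when any one of the Ossl or OsPE arrays was left out, with differences between 0.85 and 1.14. Osoc against OsPE gave -0.58 (adjusted p = 0.181). CYP76M8 had the same order of lines, with 166.1 and 212.6 in Ossl, 91.2 and 106.4 in Osoc, and 120.4 and 134.8 in OsPE. Its probe set is of the type that may cross-hybridize. No comparison of CYP76M8 passed, and Ossl against Osoc gave 0.83 (limma adjusted p = 0.056). CYP76M6 passed in no comparison, and its lines overlapped by its brightest probe set.

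The ent-copalyl diphosphate synthase of phytoalexin synthesis, CPS2, which feeds KSL7, did not follow. It read 307.2 and 241.8 in Ossl, 404.9 and 135.7 in Osoc, and 503.2 and 382.5 in OsPE, with wide spread in Osoc. Its log2 differences were -0.66 for Ossl against OsPE, 0.19 for Ossl against Osoc and -0.85 for Osoc against OsPE, and none of them passed (limma adjusted p = 0.332, 0.813 and 0.203 in that order). CYP71Z6, the neighbour and close relative of CYP71Z7 that acts on ent-isokaurene, read 267.9 and 259.9 in Ossl, 249.5 and 251.4 in Osoc, and 308.2 and 353.5 in OsPE. No comparison of it passed, and its difference of Ossl against OsPE was -0.31 where that of CYP71Z7 was 2.52. KSL5, a cyclase of the ent series, read between 869.4 and 1098.6 on all 6 arrays, with differences within -0.24 to 0.02.

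On the momilactone side, CYP99A3, the near copy of CYP99A2 with the same kind of activity, read 252.5 and 211.2 in Ossl, 149.8 and 183.9 in Osoc, and 158.4 and 171.2 in OsPE. Both Ossl arrays were above the other 4. The log2 difference was 0.45 against OsPE (limma adjusted p = 0.265) and 0.44 against Osoc (adjusted p = 0.247), neither of which passed. How far the probe sets of CYP99A2 and CYP99A3 read each other's RNA was not tested. KSL4, the cyclase between CPS4 and CYP99A2 in the momilactone route, read 13.4 and 2.1 in Ossl, 2.2 and 1.1 in Osoc, and 14.7 and 4.0 in OsPE. All of these lay below the 40th percentile, so that the step after CPS4 was not measured above the dim part of the arrays in any line.

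The order of genes along the chromosomes, taken from the japonica reference annotation, placed genes that were high in Ossl beside genes that did not pass. On chromosome 4 the order was CPS4, CYP99A3, an unnamed gene with no probe set, OsMAS, KSL4 and CYP99A2. On chromosome 2 CYP71Z7 lay between CYP71Z6 and CPS2, with KSL7 on the far side of CYP71Z6. Among the 10 annotated genes on each side of every member, 52 genes were not in the pathway list and 24 of these were tested. Of the 24, 6 rose and 0 fell in Ossl against OsPE, 5 rose and 2 fell in Ossl against Osoc, and 2 rose and 0 fell in Osoc against OsPE. Of all genes, 6.99% rose and 4.7% fell in the first of these, 10.1% and 6.99% in the second, and 5.77% and 6.14% in the third. The median log2 differences of the 24 were 0.07, 0.08 and 0.02 in that order.

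Among these neighbours, LOC4329723 on chromosome 2 lies between CYP76M8 and KSL7. The annotation gives it no name and places the gene called CYP76M7 on chromosome 6. The alias OsJ_07204 of the gene called CYP76M7 follows OsJ_07203 of CYP76M8 in number, though its other alias is OsJ_21875. LOC4329723 was counted outside the pathway list by name alone, and whether LOC4329723 belongs to the pathway was not tested. It thus counts among the neighbours that rose in both comparisons of Ossl, and not among the pathway genes. It read 993.0 and 1091.3 in Ossl, 117.3 and 114.3 in Osoc, and 90.0 and 78.7 in OsPE. The Ossl arrays stood far above the other 4. The gene rose 10.5-fold in Ossl against OsPE, a log2 difference of 3.40 (limma adjusted p = 2.68e-07), and 8.02-fold against Osoc, a log2 difference of 3.0 (adjusted p = 7.06e-07). Both calls held in all 15 alternatives. In Osoc against OsPE the difference was 0.40 (adjusted p = 0.268). Beyond the chromosome 4 cluster LOC4335098, the second gene past CYP99A2, rose in Ossl by a log2 difference of 0.73 against OsPE (adjusted p = 0.000312) and of 0.52 against Osoc (adjusted p = 0.00308). ARP9, just before CPS4, rose in Osoc against OsPE by 0.44 (adjusted p = 0.00757) and fell in Ossl against Osoc by 0.64 (adjusted p = 0.000395). The ARP9 call against OsPE ended without OsPE replicate 2 or Osoc replicate 2, with differences between 0.36 and 0.52.

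**Figure D3:**
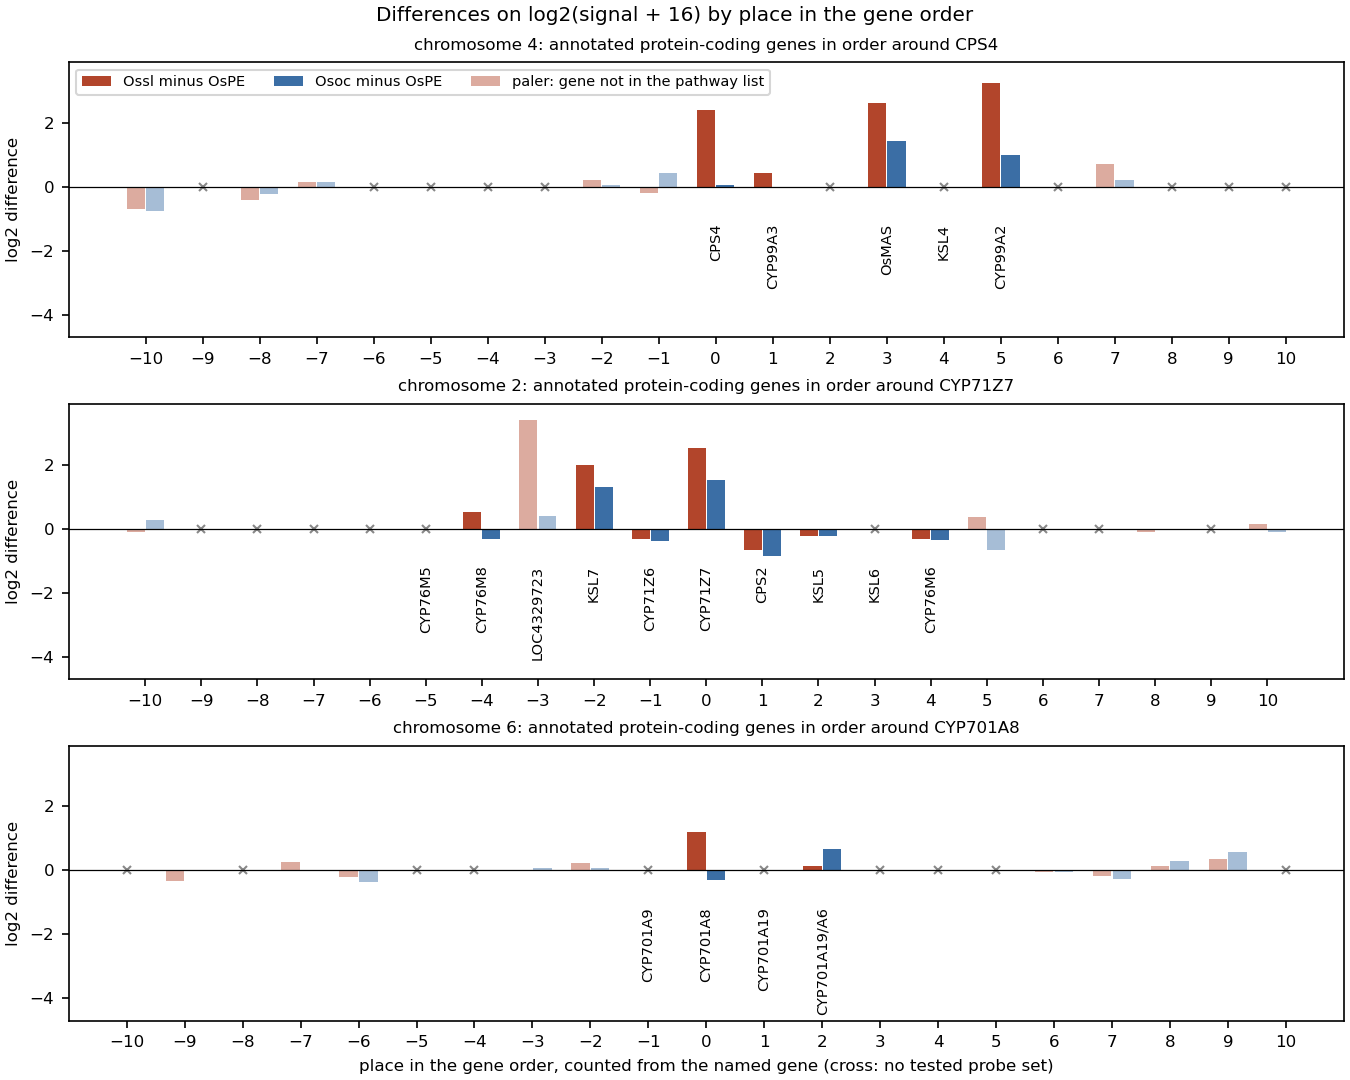
Log2 difference of each annotated protein-coding gene by its place in the gene order around CPS4, CYP71Z7 and CYP701A8, Ossl minus OsPE left and Osoc minus OsPE right; paler bars are genes outside the pathway list and crosses are genes with no tested probe set. On chromosome 2 the tall Ossl bars of LOC4329723 and KSL7 were next to each other. That of CYP71Z7 stood between CYP71Z6 and CPS2, whose bars lay below 0. On chromosome 6 no tested neighbour had an Ossl bar as tall as that of CYP701A8.

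Precursor supply and the gibberellin branch, which uses the same ent-copalyl diphosphate, were set beside the members. Of 6 tested genes in a list for the plastid precursor pathway, 0 passed in any comparison by limma. At an unadjusted p below 0.05 there were 1 in Ossl against OsPE, 2 in Ossl against Osoc and 2 in Osoc against OsPE. A gene also named MCSU3 entered by the alias MCS alone and may not belong to this pathway. It had an unadjusted p below 0.05 in both comparisons of Ossl. No geranylgeranyl diphosphate synthase was among the 6. Of all genes, 6.99% rose and 4.7% fell in Ossl against OsPE, 10.1% and 6.99% in Ossl against Osoc, and 5.77% and 6.14% in Osoc against OsPE. An unadjusted p below 0.05 was found in 4618, 5429 and 4680 of all 16460 genes in that order. With 6 genes in a list, such counts cannot show that a branch did not change. Of 6 tested gibberellin genes, the members left out, 1 rose and 0 fell in both comparisons of Ossl. In Osoc against OsPE 0 passed, and 1 had an unadjusted p below 0.05. The one that rose was GA20OX3, an oxidase of late gibberellin synthesis. It read 658.1 and 625.2 in Ossl, 281.4 and 271.8 in Osoc, and 308.5 and 414.1 in OsPE. Its log2 difference was 1.17 against Osoc (adjusted p = 0.000454) and 0.82 against OsPE (adjusted p = 0.00667). The second ended without OsPE replicate 1 or Ossl replicate 1, with differences between 0.61 and 1.02. The early enzymes CPS1 and KS1 passed in no comparison. CPS1, the gibberellin counterpart of CPS2, had -0.26 for Ossl against OsPE, and KS1, the counterpart of the KSL cyclases, had -0.27. The ent-kaurene oxidase gene listed as CYP701A19 was counted with the members and not here. Its first probe set rose in Osoc against OsPE by 0.68 (limma adjusted p = 0.0287), and its second did not pass.

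A list of regulators, signalling genes and ABC transporters tied to phytoalexin synthesis had 14 tested genes. Of these, 3 rose and 1 fell in Ossl against OsPE, 6 rose and 0 fell in Ossl against Osoc, and 0 rose and 4 fell in Osoc against OsPE. The risers included the transporters ABCG37, by 1.12 against OsPE and 0.96 against Osoc, and PDR9, by 0.83 against Osoc. Both ABCG37 calls ended without Ossl replicate 1, and that against Osoc also without Osoc replicate 1. Of all genes, 6.99% rose and 4.7% fell in the first comparison, 10.1% and 6.99% in the second, and 5.77% and 6.14% in the third. The list's median log2 differences were 0.05, 0.37 and -0.23 in that order. WRKY76, a repressor of phytoalexin genes when overexpressed in rice, read 1955.5 and 1845.5 in Ossl, 783.4 and 929.5 in Osoc, and 1313.4 and 1414.0 in OsPE. WRKY62, a related factor, read 474.1 and 480.4 in Ossl, 129.7 and 125.7 in Osoc, and 269.6 and 314.4 in OsPE. Both factors had Ossl highest and Osoc lowest. Another factor of the list, WRKY71, had OsPE highest, with 2668.1 and 2899.3 in Ossl, 2666.0 and 2619.9 in Osoc, and 3770.0 and 3719.0 in OsPE. WRKY71 was the 1 gene of the list that fell in Ossl against OsPE, by 0.43 (limma adjusted p = 0.00192), and it also fell in Osoc against OsPE, by 0.50 (adjusted p = 0.000882). WRKY76 rose by 1.14 and WRKY62 by 1.78 in Ossl against Osoc (limma adjusted p = 1.19e-05 and 3.14e-05), and these factors fell in Osoc against OsPE, by 0.67 and 1.10. Against OsPE, WRKY76 and WRKY62 rose in Ossl by 0.47 and 0.68 (adjusted p = 0.0104 and 0.0292). Those last calls ended without OsPE replicate 1 or Ossl replicate 1, and that of WRKY62 also without either of the other arrays of these lines, with differences of 0.42 to 0.53 and 0.58 to 0.79. MPK3, a kinase of defence signalling, fell in Osoc against OsPE by 0.65 (adjusted p = 0.00142) and rose in Ossl against Osoc by 0.63 (adjusted p = 0.00107). Some genes entered this list by an alias alone, which may not mean the regulator intended. The list was chosen with earlier results of these arrays known, so its calls are not independent of the choice.

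Outside these lists, the genes whose signals over the 6 arrays were most like the mean of the 6 members were found by Pearson's r. The points fall into 3 lines of 2 arrays each, so r mainly reflects the order of the lines, and 5.88% of the 697 named probe sets that vary enough had r above 0.9. The 10 closest probe sets stood for MS, Cht2 (with both of its probe sets), ICL, CH16, CYP71P1, HIRL2, CML14, BGLU22 and GSTU6, with r between 0.961 and 0.989. Cht2, a chitinase, read 6914.5 and 5955.1 in Ossl, 2425.4 and 2155.0 in Osoc, and 976.4 and 823.4 in OsPE. ICL, isocitrate lyase of the glyoxylate cycle, read 722.0 and 732.1 in Ossl, 329.4 and 314.2 in Osoc, and 248.8 and 232.4 in OsPE. CYP71P1, which makes serotonin from tryptamine in rice, read 1936.1 and 1992.9 in Ossl, 887.6 and 724.3 in Osoc, and 365.1 and 286.0 in OsPE. In each of these genes the lines were stepped in the order of the members' mean.

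**Figure D4:**
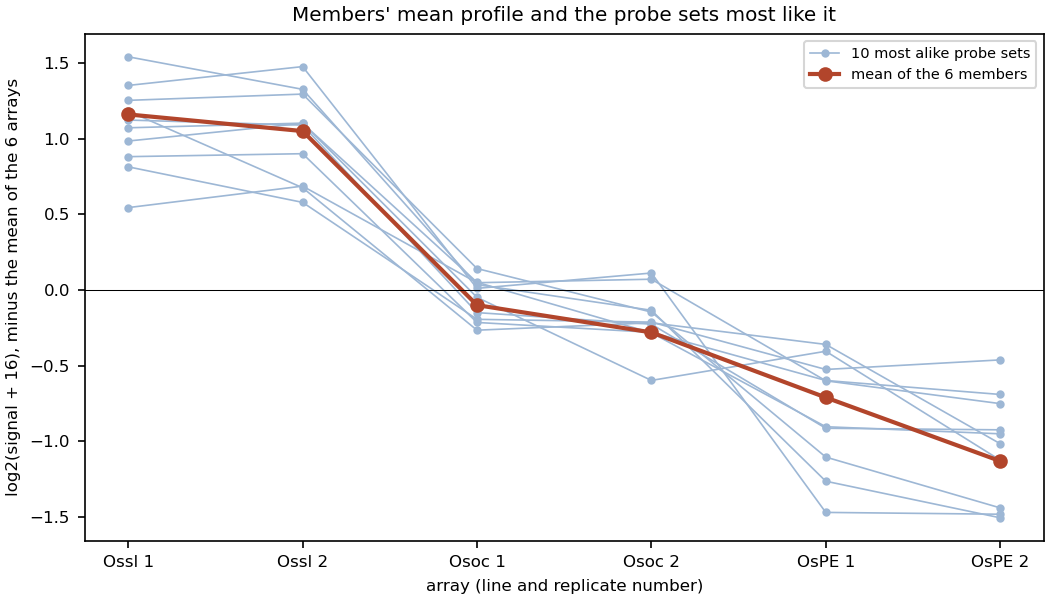
Centred log2(signal + 16) on each array, Ossl left, Osoc in the middle and OsPE right, for the mean profile of the 6 members and the 10 probe sets most like it; the joining lines only connect points of 1 probe set. The mean profile was 1.16 and 1.05 on the Ossl arrays, -0.10 and -0.28 on the Osoc arrays and -0.71 and -1.13 on the OsPE arrays.

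Technical and tissue measures are given beside these results. The trimmed mean signal was 500.1 on every array, and the medians lay between 37.4 and 42.8. The added poly-A control RNAs were lower on the Ossl arrays, by a mean log2 difference of -1.24 against the other arrays at their 5′ end and -0.52 at their 3′ end. The hybridization controls were higher there, by 0.30 for the 5′ and 0.29 for the 3′ probe sets. The summed signal of the leaf markers (4 of 4 tested) was 138250.8 to 154277.6 in Ossl, 133271.3 to 140587.9 in Osoc and 136328.3 to 141195.2 in OsPE. That of the root markers (8 of 9 tested) was 2622.5 to 2643.1 in Ossl, 2360.4 to 2437.2 in Osoc and 2692.5 to 2788.6 in OsPE. The root silicon transporter LSI1 read 1410.5 and 1424.8 in Ossl, 1564.8 and 1575.3 in Osoc, and 1673.3 and 1568.3 in OsPE, with no comparison passing, and LSI2 was below the 40th percentile on every array. Other root markers went both ways. The phosphate transporter PT8 read 856.7 and 811.6 in Ossl, 391.8 and 460.6 in Osoc, and 592.3 and 626.3 in OsPE. PT8 rose in Ossl by a log2 difference of 0.44 against OsPE (limma adjusted p = 0.0432) and of 0.95 against Osoc (adjusted p = 0.000295), and fell in Osoc against OsPE by 0.50 (adjusted p = 0.0247). These values are of its brightest probe set, of the type that may cross-hybridize. Another bright probe set gave 0.27 for Ossl against OsPE, which did not pass (limma adjusted p = 0.306). It passed in the other comparisons in the same directions, and a dim one passed in none. The marker calls were not refitted under the alternatives. The ammonium transporter AMT1;2 fell in Ossl against OsPE by 0.84 (adjusted p = 0.0164). The other 5 tested root markers, among them IRT1 with its highest signals in Ossl, passed in no comparison. A gene among them, also named GRF4, entered by the alias PT2 alone and may not be the root marker intended. Its signal is part of the root sums. The grain markers (8 of 12 tested) summed to 9001.6 to 9951.5 in Ossl, 9031.2 to 9231.8 in Osoc and 9607.4 to 9955.5 in OsPE. The part of these measures in the members' differences was not tested.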

How the data were processed

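The authors hybridized biotin-labelled RNA to 1 array per sample, and the deposited signals are linear intensities, 1 per probe set and array. Per the labels the authors used GCOS 1.2, while the signal algorithm and its settings are not stated there. The trimmed mean is the same on every array, and this scale was kept. The 123 manufacturer controls were left out of the tests. Of the other 57258 probe sets, 39629 exceeded the 40th percentile of their array on at least 2 of the 6 arrays and were tested, the dimmest members included.

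All 6 arrays entered 1 fit with limma 3.58.1 in R 4.3.3 on log2(signal + 16), with a variance trend, 3 residual and 8.98 prior degrees of freedom. Tests were two-sided, and p-values were Benjamini-Hochberg adjusted over all probe sets tested, with a threshold of 0.05. A gene was counted by its brightest tested probe set. With 2 arrays per line the number of arrays limits the precision, and nothing beyond the word biological says how the replicates were grown. The code was tested on simulated data.

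Names and order of genes were taken from the annotation ASM3414082v1 of Oryza sativa Japonica Group and a probe annotation, whereas the samples are labelled Indica Group. Of the probe sets, 22436 matched 1 gene, 95 several and 34850 none. No gene matched the list for the flavonoid phytoalexin sakuranetin, and no sequences were analysed here.

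Members and lists were chosen with earlier results of these data known. The text names all members, genes of the lists, tested genes among the 10 neighbours on each side, and the 10 probe sets most like the members' mean profile. Alternatives were other offsets, filters, normalizations, variance models, a replicate block and leaving out each array. The variance models for single genes, and all alternatives for named genes that are not members, were added after seeing the data.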

Additional observations from a re-analysis of the deposited data

How the results depend on the processing

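The differences of CPS4, CYP99A2, OsMAS, CYP71Z7 and CYP701A8 in both comparisons of Ossl kept their sign in all 15 alternatives. Their size in Ossl against OsPE ranged over 1.53 to 3.02 for CPS4, 2.41 to 3.84 for CYP99A2, 1.60 to 3.73 for OsMAS, 2.06 to 2.74 for CYP71Z7 and 1.13 to 1.25 for CYP701A8. The ends for CPS4 and OsMAS came from the offsets of 64 and 1, since the other lines are dim there.

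Without the variance trend, 382 probe sets passed in Ossl against OsPE (3138 with it), 402 in Ossl against Osoc (4441) and 28 in Osoc against OsPE (2955). No listed pathway gene outside the members passed in that fit: there were 0 in each comparison, with 5, 3 and 3 at an unadjusted p below 0.05. Leaving out 1 array gave 1495 to 2781 probe sets in Ossl against OsPE, 2342 to 3787 in Ossl against Osoc and 1201 to 3278 in Osoc against OsPE. It gave 0 to 2 pathway genes in Ossl against OsPE, 1 in Ossl against Osoc and 0 to 1 in Osoc against OsPE.

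In Osoc against OsPE the 1 pathway gene that passed, KSL7, became 0 with an offset of 64, without the filter, with only the arrays of the lines compared, and with the replicate block, with 5, 5, 3 and 5 at an unadjusted p below 0.05. In Ossl against Osoc the 1 pathway gene became 2 with the 60th percentile as filter and with a robust variance trend.

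Deviations of arrays with the same replicate number had correlations of 0, 0 and 0.01 between lines, so the numbers were not taken as pairs. With the replicate block 3132 probe sets passed in Ossl against OsPE, 4423 in Ossl against Osoc and 2958 in Osoc against OsPE, and OsMAS passed in Osoc against OsPE.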
